A study of Mus musculus with 21 samples.

Results

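Ccr7, S1pr1, Klf2 and Klf3, 4 of the 17516 genes listed in each count table, were followed by name through 21 single-cell RNA libraries of cultured mouse CD8 T cells. Their rows were read in every library, whatever their values. The cells were OT1 cells, T cells of a transgenic mouse line that carry 1 T cell receptor for a peptide of ovalbumin. One library held naive cells before culture (day 0). All other cells had been activated with beads carrying anti-CD3 and anti-CD28, and 2 of these libraries (days 3 and 5) had no cytokine. The remaining 18 libraries came from cultures with interleukin-2 (IL-2), with IL-2v, which the labels call mutant IL-2bg, or with interleukin-15 (IL-15), each at 5 and 50 IU/mL and each sampled on days 3, 5 and 10. Every condition was 1 library, with no replicate, so the intervals given here cover counting error only and no difference was tested. The age, the sex and the number of mice were not given in the labels used here. In 6 libraries the treatment field disagreed with the title: it gave interleukin-3 in 3 libraries whose titles give IL-2 at the higher dose, and interleukin-16 in 3 whose titles give IL-15 at that dose. The titles were followed, and every statement on those 6 libraries rests on them. The extraction text also described sorted CD44-positive tumour-infiltrating cells, whereas the titles and the growth text describe culture.

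The 21 libraries held 106456 cells, 3250 to 7105 in each, with 10589950 to 32648496 unique molecular identifiers (UMIs, tags that mark single captured RNA molecules) and a median of 3016 to 5065 UMIs per cell. The shallowest was the library with 50 IU/mL IL-2 on day 5. Levels are given as CPM, UMIs of a gene per 1000000 UMIs of the library. Cd3d, a subunit of the T cell receptor complex, was found in 93.0% to 99.5% of the cells of a library and Cd8b1, a chain of the CD8 co-receptor, in 54.6% to 92.0%. Of the 6 T cell genes, Cd8b1, Cd8a and Trac had their lowest levels, 174, 134 and 180 CPM, in the library with 50 IU/mL IL-2 on day 10, where all 4 genes were lowest. With 5 IU/mL IL-15 on day 10 they were at 1010, 368 and 321 CPM. Cd3e was at 332 and 667 CPM in these libraries, Cd3d at 1162 and 1205 CPM and Cd3g at 945 and 959 CPM. The part of these markers in the result was not tested. Cd4 was found in at most 1.49% of cells and the myeloid genes Lyz2 and Csf1r in at most 0.126%. Of the 5 myeloid genes, Fcer1g and Cd68 were highest where all 4 genes were lowest, in the library with 50 IU/mL IL-2 on day 10. Fcer1g was found in 17.7% of its cells and in 0.0917% to 7.58% of those of the other 20 libraries, and Cd68 in 7.39% and in 0.385% to 2.85%. Itgam was found in 0.223% of its cells and in 0% to 1.66% of the others, and the part of these genes in the result was not tested. The summed level of the 5 myeloid genes was 4.60 CPM in naive cells and 1.24 to 128.5 CPM in the others. No cell type that should lack the 4 genes was present, so the level that free RNA could give was not measured. Any pair of libraries shared 1 to 19 cell barcodes.

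A naive T cell circulates between blood and lymph nodes. The chemokine receptor CCR7, which reads the chemokines CCL19 and CCL21, helps bring it into the node, and S1PR1, a receptor for sphingosine-1-phosphate, lets it leave towards lymph. KLF2 is a zinc finger transcription factor of resting T cells that binds GC-rich and CACCC-type DNA and is known to activate S1pr1, and KLF3 is a related factor that mostly represses through the co-repressor CtBP. The antigen receptor and strong IL-2 signals are known to switch Klf2 off through the PI3K and AKT pathway, which keeps the factor FOXO1 out of the nucleus, and the IL-2 and IL-15 receptors share their beta and gamma chains.

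In GENCODE vM21 on GRCm38, Klf2 lies on the plus strand at chr8:72319033-72321656, Klf3 on the plus strand at chr5:64803388-64832901, S1pr1 on the minus strand at chr3:115710433-115715072 and Ccr7 on the minus strand at chr11:99144196-99155077. Klf3 shares 3.59% of its exonic bases with Gm20033 on the opposite strand, and the other 3 genes share none with another gene. The promoter stretches of the 2 KLF genes are shown, the only 2 of the 4 genes matched in the promoter table used here. They were taken from RefSeq (GRCm38.p6, plus strand, 5′ to 3′) and end before the first annotated transcript base. The Klf2 stretch is chr8:72318812-72319032, with capitals on a match to the MEF2 motif, and the Klf3 stretch is chr5:64803271-64803387, with capitals on GGGTG, which is CACCC read on the other strand.
Klf2: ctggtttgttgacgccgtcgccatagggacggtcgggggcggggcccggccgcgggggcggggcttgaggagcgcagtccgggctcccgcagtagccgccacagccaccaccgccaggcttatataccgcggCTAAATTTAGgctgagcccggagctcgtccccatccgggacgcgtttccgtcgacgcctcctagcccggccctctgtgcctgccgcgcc
Klf3: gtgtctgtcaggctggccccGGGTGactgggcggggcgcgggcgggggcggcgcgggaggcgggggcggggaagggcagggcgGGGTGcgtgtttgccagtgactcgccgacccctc
The match in Klf2, CTAAATTTAG, stood 118 to 109 bases before the RefSeq start, and 2.60% of 32841 promoter windows of the same length held a MEF2 match on either strand. Klf2 also held 2 matches to GGGCGG, a motif present in 28.7% of those windows, and no CACCC on either strand. The Klf3 stretch held 2 CACCC matches, which 28.4% of 32844 windows of its length held, and 5 matches to GGGCGG, which 12.4% held; 1 of the 5 shares its last base, 167 bases before the RefSeq start, with a CACCC match. Neither stretch held GTAAACA, the forkhead motif, in these letters. These matches describe the DNA and are not binding sites found here.

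All 4 genes were high in naive cells, lower in most activated cells, and spread widely among the activated cells by cytokine, dose and day. The level in activated libraries was below the naive level, with intervals that did not overlap, in 20 of 20 libraries for S1pr1 and Klf3, in 19 for Klf2 and in 18 for Ccr7. From the lowest to the highest library the level differed 60.3-fold for Klf3, 113-fold for Ccr7, 119-fold for Klf2 and 240-fold for S1pr1. The lowest level of each gene was in cells with 50 IU/mL IL-2 on day 10. The highest level among activated cells was, for each gene, in cells with 5 IU/mL IL-15 on day 10.

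**Figure D1:**
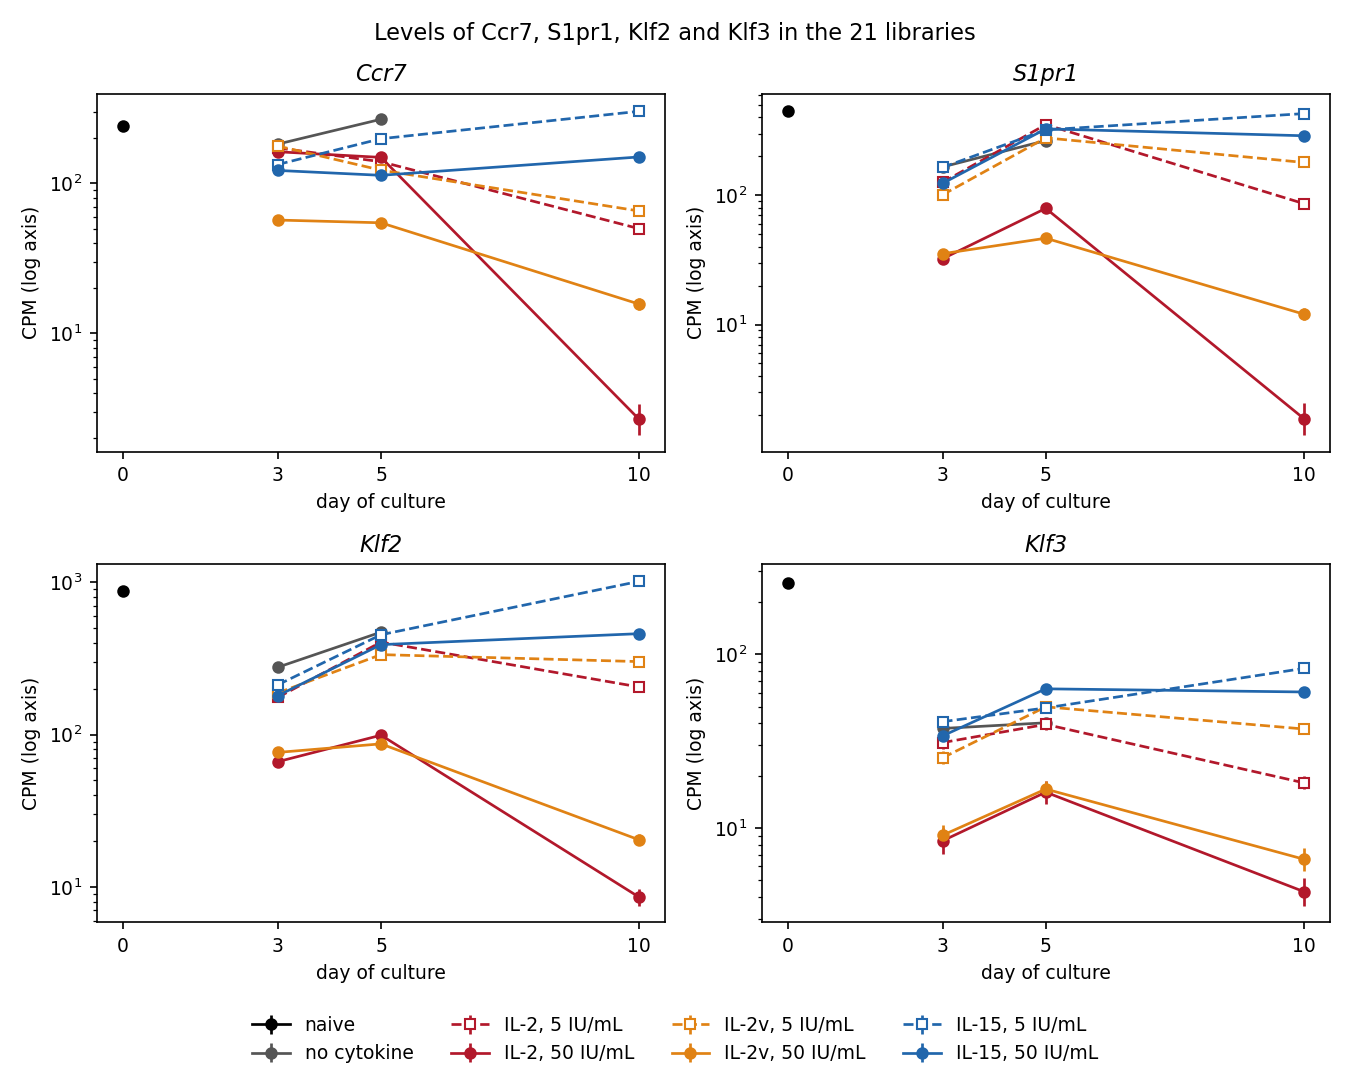
Level of each gene (CPM, log axis) against the day of culture, 1 point per library, with bars for exact Poisson 95% intervals (counting error only). Open squares are 5 IU/mL. Filled circles are 50 IU/mL, and also naive cells and cells without cytokine, which differ by color. On day 10 the 50 IU/mL IL-2 library lies at 2.68 CPM for Ccr7 and 1.87 CPM for S1pr1, while the 5 IU/mL IL-15 library lies at 302 and 428 CPM.

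Klf2 stood at 883 CPM in naive cells (95% interval 869.9 to 897.1), at 277 CPM without cytokine on day 3 and at 471 CPM on day 5. On days 3, 5 and 10 Klf2 was at 175, 405 and 205.4 CPM with 5 IU/mL IL-2 and at 66.3, 99.1 and 8.54 CPM with 50 IU/mL. The lower dose of IL-2v gave 188, 335 and 302 CPM on the same days, and the higher dose 76.3, 86.9 and 20.3 CPM. The 6 libraries with the higher dose of IL-2 or IL-2v were therefore the 6 lowest of all. IL-15 gave 212, 453 and 1016 CPM at 5 IU/mL and 180, 390 and 460 CPM at 50 IU/mL. The highest of these (interval 1003 to 1029) was the only level in activated cells above naive cells. In the order of the 21 levels, 6 pairs of neighbours had overlapping intervals, among them the day 5 library without cytokine with the higher dose of IL-15 on day 10, and the latter with the lower dose of IL-15 on day 5.

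Klf3 was 259 CPM in naive cells (interval 251.5 to 266.3) and never above 83.0 CPM afterwards. It was 37.4 CPM without cytokine on day 3 and 40.3 CPM on day 5. On days 3, 5 and 10 Klf3 was at 31.0, 39.5 and 18.2 CPM with 5 IU/mL IL-2, and at the higher dose at 8.42, 16.1 and 4.29 CPM. As for Klf2, the 6 libraries with the higher dose of IL-2 or IL-2v were the 6 lowest for Klf3, but the highest of them overlapped in its interval with 5 IU/mL IL-2 on day 10. Among activated cells the levels of Klf3 spanned 19.3-fold. IL-2v gave 25.3, 49.8 and 37.1 CPM at 5 IU/mL and 9.06, 16.7 and 6.60 CPM at 50 IU/mL. For 5 IU/mL IL-15 the levels were 40.9, 49.1 and 83.0 CPM, and with 50 IU/mL IL-15 33.9, 63.3 and 60.7 CPM. Unlike Klf2, Klf3 did not come back to the naive level in any library: 12 of the 20 pairs of neighbours in its order overlapped, none of them with naive cells.

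S1pr1, the egress receptor, stood at 448 CPM in naive cells (interval 438.6 to 457.9), 165 CPM without cytokine on day 3 and 265 CPM on day 5. On days 3, 5 and 10 S1pr1 was at 126, 352 and 86.1 CPM with 5 IU/mL IL-2, and at the higher dose at 32.2, 79.1 and 1.87 CPM. The last value rests on 51 UMIs among 27274115. Levels with IL-2v were 101, 278 and 179 CPM at 5 IU/mL and at 50 IU/mL 35.3, 46.5 and 12.0 CPM. Levels with IL-15 were 164, 320 and 428 CPM at 5 IU/mL and at 50 IU/mL 123, 326 and 288 CPM. The day 5 libraries with 5 IU/mL IL-2 and with either dose of IL-15 were above the library without cytokine, and 5 IU/mL IL-15 on day 10 was close to naive cells but below them (interval 419.5 to 436.3).

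Ccr7, the entry receptor, was 241 CPM in naive cells (interval 233.6 to 247.8), 183 CPM without cytokine on day 3 and 267 CPM on day 5. On days 3, 5 and 10 Ccr7 was at 172, 139 and 49.9 CPM with 5 IU/mL IL-2. At 50 IU/mL it was 162, 149 and 2.68 CPM, so the doses of IL-2 had near-equal levels until day 5 and then parted. IL-2v gave 177, 122 and 65.4 CPM at 5 IU/mL, and at 50 IU/mL 57.0, 54.6 and 15.7 CPM, low from day 3 on. IL-15 gave 134, 198 and 302 CPM at 5 IU/mL and at 50 IU/mL 122, 113 and 150 CPM. The libraries without cytokine on day 5 and with the lower dose of IL-15 on day 10 were above naive cells, and 10 pairs of neighbours in the order overlapped.

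In day 3 cells without cytokine 3 of the 4 genes were more than 2-fold below naive cells, Klf3 by the most. Against naive cells the difference in log2(CPM + 1) was −2.76 for Klf3, −1.67 for Klf2 and −1.43 for S1pr1, but −0.40 for Ccr7. Of all genes at 20 CPM or more in either library, 8.31% were at least 2-fold lower and 11.1% at least 2-fold higher. Cycling cells, taken as cells with a UMI of Mki67 or Top2a, made up 3.01% of naive cells and 60.0% of the day 3 cells. In cells without such a UMI Ccr7 was 244 CPM in naive and 249 CPM in day 3 cells, a difference of 0.03, while Klf3 was 260 and 49.3 CPM and Klf2 887 and 318 CPM. The lower level of Ccr7 on day 3 was thus not seen in noncycling cells. From day 3 to day 5 without cytokine no gene passed 2-fold, beside 3.61% of all genes higher and 9.47% lower: Klf2 was 0.76 higher, S1pr1 0.67, Ccr7 0.55 and Klf3 0.11. Klf3 was instead 0.22 lower on day 5 in noncycling cells, at 42.1 against 49.3 CPM.

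Cytokines were compared with activated cells that had none, on days 3 and 5; the same 2 control libraries serve all 3 cytokines. IL-2 gave 6 of 16 values at least 2-fold lower and 0 higher, beside 2.8% of all genes' values lower and 6.54% higher. All 6 were at 50 IU/mL, where 2.74% of all genes were lower on day 3 and 7.54% on day 5. They were S1pr1, Klf2 and Klf3: on day 3 they differed by −2.33, −2.04 and −2.03, and on day 5 by −1.73, −2.24 and −1.28. Ccr7 differed by −0.17 on day 3 and −0.84 on day 5 in the same cells. IL-2v gave 9 of 16 values at least 2-fold lower and 0 higher, beside 2.57% lower and 10% higher among all genes. All 4 genes were among the 9, with Ccr7 at −1.66 on day 3 and −2.27 on day 5 with 50 IU/mL, and at −1.12 on day 5 with 5 IU/mL. In these 3 pairs 1.75%, 5.53% and 2.62% of all genes were lower, in that order. On day 5 cycling cells made up 13.8% without cytokine and 39.8% and 66.7% with 5 and 50 IU/mL IL-2v. In noncycling cells of day 5, Ccr7 was 140.9 CPM with 5 IU/mL IL-2v against 279.7 CPM without cytokine. Klf3 was 26.2 CPM with 50 IU/mL IL-2v against 42.1 CPM there. Both differences were under 2-fold, and the part of cycling was not tested. IL-15 gave 1 of 16, beside 0.699% of all genes' values lower and 2.06% higher, and this was Ccr7 on day 5 with 50 IU/mL at −1.23. In that pair 1.9% of all genes were lower. S1pr1 and Klf3 were slightly above the control on day 5 with either dose of IL-15, by 0.27 to 0.64.

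With IL-2 and IL-2v the higher dose went with lower levels of most of the genes on every day. With IL-15 S1pr1, Klf2 and Klf3 differed less between doses, and Ccr7 was lower at the higher dose on each day (median −0.80). From 5 to 50 IU/mL IL-2, 9 of 11 values that reached 20 CPM fell by at least 2-fold, beside 6.59% of all genes' values lower and 7.98% higher. By day, 1.98%, 3.4% and 14.5% of all genes were lower on days 3, 5 and 10. S1pr1 fell by 1.93, 2.14 and 4.92 on the log2 scale on days 3, 5 and 10 and Klf2 by 1.39, 2.02 and 4.43. Klf3 fell by 1.76 and 1.25 on days 3 and 5, and on day 10 it was at 18.2 and 4.29 CPM, under the level set for counting. Ccr7 differed by −0.09 on day 3 and 0.10 on day 5, where its intervals overlapped, and fell by 3.79 on day 10. From 5 to 50 IU/mL IL-2v, 12 of 12 values fell by at least 2-fold, beside 2.55% of all genes' values lower and 3.79% higher, with Ccr7 falling by 1.62, 1.15 and 1.99 on days 3, 5 and 10. Of all genes, 0.677%, 1.13% and 6.14% were lower on these days. From 5 to 50 IU/mL IL-15, 2 of 12 values fell, beside 0.857% lower and 1.8% higher among all genes. These were Klf2 (−1.14) and Ccr7 (−1.01) on day 10, when 2.37% of all genes were lower. The value of Ccr7 lay at the threshold: leaving out cells over 2 times the median UMIs, among other settings, left 1 of the 2.

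**Figure D2:**
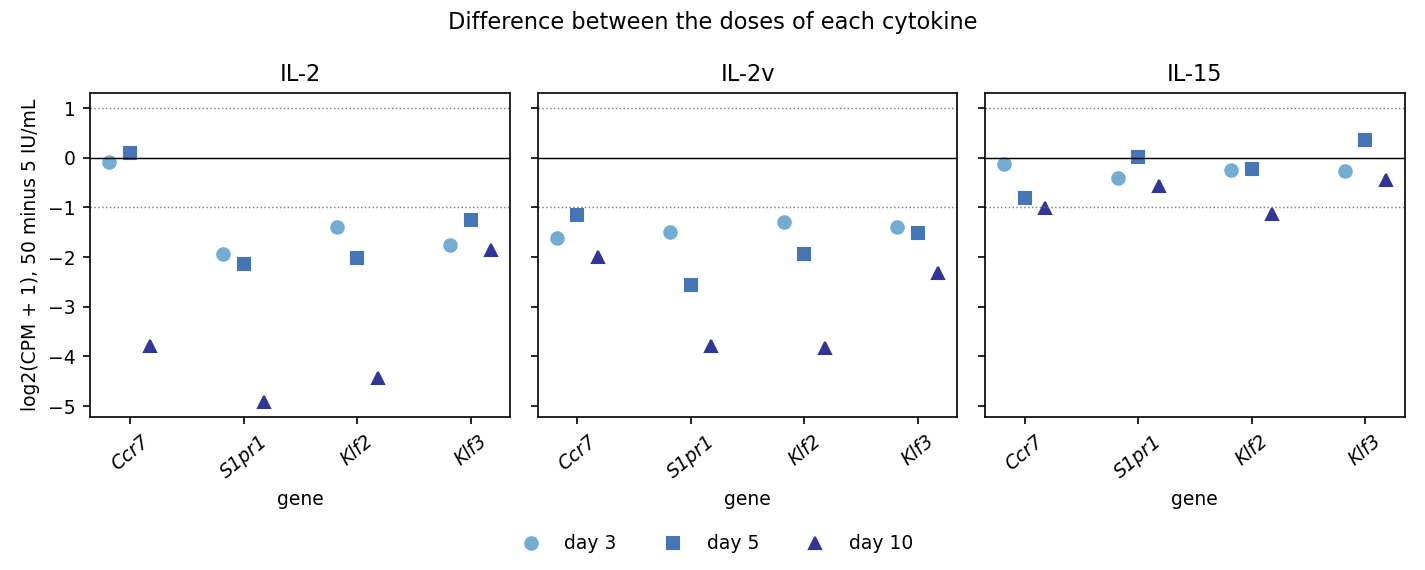
Difference in log2(CPM + 1) between 50 and 5 IU/mL of each cytokine on days 3, 5 and 10 for the 4 genes, 1 point per pair of libraries; the dotted lines mark a 2-fold difference. With IL-2, Ccr7 lies at −0.09 and 0.10 on days 3 and 5 while S1pr1 lies at −1.93 and −2.14; with IL-2v all points of the 4 genes lie below −1.

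Cycling differed with dose as well. With 50 and 5 IU/mL the cycling share was 73.8% and 62.8% for IL-2 on day 3, 50.4% and 18.7% on day 5, and 13.4% and 18.2% on day 10. For IL-2v it was 86.9% and 66.2% on day 3, 66.7% and 39.8% on day 5 and 25.0% and 40.6% on day 10. Within libraries, Klf3 was lower in cycling than in noncycling cells in 21 of 21 libraries, S1pr1 in 20, Ccr7 in 19 and Klf2 in 18, with median differences of −0.48, −0.46, −0.45 and −0.36. Counted in noncycling cells alone, 9 of 11 values fell with the dose of IL-2, beside 7.27% of all genes' values lower and 8.12% higher in those cells. With the dose of IL-2v 11 of 12 fell there, beside 2.69% lower and 6.26% higher. The part of cycling in the differences between doses was not tested.

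The cytokines parted most on day 10. Against IL-2 of equal dose and day, IL-15 gave 14 of 24 values at least 2-fold higher and 0 lower, beside 3.21% of all genes' values higher and 5.68% lower. All 8 values of day 10 were among them, so 6 remained without day 10, and these 6 were S1pr1, Klf2 and Klf3 at 50 IU/mL on days 3 and 5. On day 10 with 50 IU/mL the differences were 6.66 for S1pr1, 5.59 for Klf2, 5.36 for Ccr7 and 3.54 for Klf3. At 5 IU/mL on that day they were 2.30, 2.30, 2.57 and 2.13 in that order. Of all genes on day 10, 9.86% were at least 2-fold higher at 50 IU/mL and 2.42% at 5 IU/mL. Before day 10 Ccr7 was lower with IL-15 than with IL-2 in 3 of 4 pairs, by 0.37 and 0.41 at 5 and 50 IU/mL on day 3 and by 0.39 at 50 IU/mL on day 5. S1pr1 was lower with IL-15 in 1 pair, by 0.14 at 5 IU/mL on day 5.

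Against IL-15, IL-2v gave 16 of 24 values at least 2-fold lower and 0 higher, beside 2.48% of all genes' values lower and 6.15% higher. Without day 10 the count was 8, and those 8 were the 4 genes at 50 IU/mL on days 3 and 5. Of these, Ccr7 on day 5 lay near the threshold, at 54.6 against 113.1 CPM. In noncycling cells it was 78.0 against 118.5 CPM, under 2-fold. On day 10 at 5 IU/mL the differences ran from −2.19 for Ccr7 and −1.75 for Klf2 to −1.25 for S1pr1 and −1.14 for Klf3, and with 50 IU/mL from −4.47 for S1pr1 to −3.02 for Klf3. Of all genes on that day, 6.47% were at least 2-fold lower at 5 IU/mL and 5.19% at 50 IU/mL. In noncycling cells of day 10 at 5 IU/mL, S1pr1 was 223.5 against 429.2 CPM and Klf3 47.4 against 83.5 CPM, both under 2-fold. The part of cycling in these differences was not tested. These comparisons use the same IL-15 libraries as those with IL-2 above.

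IL-2v and IL-2 of equal dose differed less and without 1 direction. Of 19 values that reached 20 CPM, 2 were at least 2-fold higher with IL-2v and 2 lower, beside 3.99% of all genes' values higher and 2.55% lower. The lower values were Ccr7 with 50 IU/mL on day 3 (−1.50) and day 5 (−1.43). On the same days S1pr1, Klf2 and Klf3 differed between these libraries by −0.75 to 0.20. The higher values were on day 10: S1pr1 with 5 IU/mL (1.05) and Klf2 with 50 IU/mL (1.16). At 50 IU/mL on day 10 Ccr7 (15.7 against 2.68 CPM) and S1pr1 (12.0 against 1.87 CPM) were higher by 2.18 each, below the level set for counting.

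Over time, S1pr1 and the KLF genes were higher on day 5 than on day 3 in all 6 cytokine cultures, and Ccr7 in 1 of 6. Of 22 values that reached 20 CPM, 7 were at least 2-fold higher and 0 lower, beside 1.79% of all genes' values higher and 5.25% lower. These 7 were S1pr1 in 4 cultures (1.27 to 1.48) and Klf2 in 3 (1.09 to 1.20). Ccr7 was higher by 0.57 with 5 IU/mL IL-15 and lower by 0.06 to 0.53 in the other 5 cultures. The cycling share of cells was lower on day 5 than on day 3 in all 6 cultures. In noncycling cells 5 of 23 values were at least 2-fold higher and 0 lower, beside 1.95% of all genes' values higher and 4.57% lower.

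From day 5 to day 10 the cultures diverged. Of 22 values, 9 were at least 2-fold lower and 1 higher, beside 7.68% of all genes' values lower and 2.73% higher. The lower values were Ccr7 and S1pr1 with IL-2 at either dose and with 50 IU/mL IL-2v, Klf2 with 50 IU/mL IL-2 and 50 IU/mL IL-2v, and Klf3 with 5 IU/mL IL-2. The largest were Ccr7 (−5.35), S1pr1 (−4.80) and Klf2 (−3.39) with 50 IU/mL IL-2. The 1 higher value was Klf2 with 5 IU/mL IL-15 (1.16). With IL-15 Ccr7 was higher on day 10 by 0.60 at 5 IU/mL and by 0.40 at 50 IU/mL.

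The share of cells with a UMI of each gene was also compared between libraries. To set depth equal, cells were thinned to 2000 UMIs and those with fewer were left out, 57 to 393 cells per library, 306 of them naive; shares of thinned cells are of the cells that remained. Klf2 was found in 76.5% of naive cells, in 38.5% of cells without cytokine on day 3, in 1.77% with 50 IU/mL IL-2 on day 10 and in 77.8% with 5 IU/mL IL-15 on day 10. S1pr1 was found in 56.8%, 29.1%, 0.469% and 53.2% of the cells of these libraries, and Ccr7 in 36.4%, 28.9%, 0.618% and 43.7%. Klf3 was found in 36.2%, 8.13%, 0.959% and 15.2%. The cells with a UMI held 1.07 UMIs of Klf2 each with 50 IU/mL IL-2 on day 10 and 2.71 with 5 IU/mL IL-15 on that day. At this depth such shares depend largely on the mean level. Spread at random over cells (a Poisson law), S1pr1 UMIs would miss 68.9% of day 3 cells without cytokine, and 70.9% had none. For Klf2 with 5 IU/mL IL-15 on day 10 these shares were 12.1% and 22.2%. The shares of cells thus followed the level in large part, but less closely for Klf2 than for S1pr1 in these examples.

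Klf2 also differed in how it was spread over the cells. On day 5 it was found in 45.3% of thinned cells with 5 IU/mL IL-2 and in 45.3% with 5 IU/mL IL-2v, but at 405 and 335 CPM. Cells with 3 or more UMIs of Klf2 made up 10.9% and 5.05%, and the variance of its UMIs over cells was 1.75 and 1.24 times their mean. Without cytokine on day 5, 48.3% of cells had Klf2, 15.2% had 3 or more UMIs and the variance was 1.90 times the mean. Klf2 was thus more unevenly spread in that library and with 5 IU/mL IL-2 than with 5 IU/mL IL-2v.

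Counted together in thinned cells, 6.06% of naive cells had a UMI of none of the 4 genes and 7.74% had all 4. On day 10 with 5 IU/mL IL-15 these shares were 10.2% and 4.49%. In cells without cytokine 31.5% had none on day 3 and 25.8% on day 5. With 50 IU/mL IL-2v, 72.9%, 69.4% and 90.3% had none on days 3, 5 and 10, and with 50 IU/mL IL-2, 63.9%, 57.9% and 96.3%. In these 6 libraries cells with all 4 numbered at most 3.

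**Figure D3:**
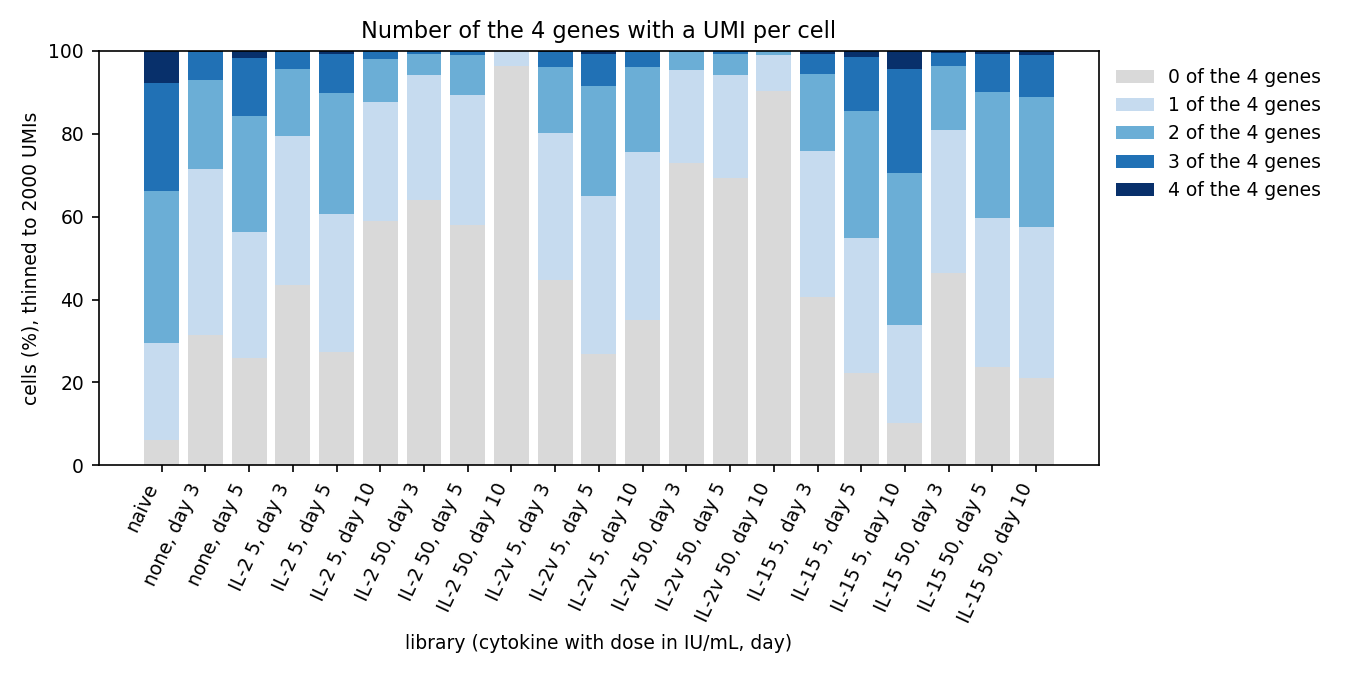
Share of cells (%, bars from 0 to 100) with a UMI of 0, 1, 2, 3 or 4 of the 4 genes in each library, after thinning to 2000 UMIs per cell. Cells with 0 of the 4 make up 6.06% in naive cells, 10.2% with 5 IU/mL IL-15 on day 10 and 96.3% with 50 IU/mL IL-2 on day 10.

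Single cells with 1 of the genes had the others somewhat more often than the product of the 2 shares gives. S1pr1 with Klf2 was found in 45.1% of naive cells against a product of 43.4%, and in 25.9% against 18.4% without cytokine on day 5. Over the 21 libraries the median ratio was 1.31 for this pair, 1.34 for Klf2 with Klf3 and 1.46 for S1pr1 with Klf3, with the 95% interval above the product in 19, 19 and 18 libraries. For Ccr7 with S1pr1, Klf2 and Klf3 it was 1.14, 1.13 and 1.15, above the product in 13, 13 and 9 libraries. These medians were the lowest of the pairs, but the order of the pairs differed between libraries. In naive cells Ccr7 with Klf3 had the highest ratio, 1.146, while Ccr7 with Klf2 was at 1.046 and Ccr7 with S1pr1 at 1.017. The pairs without Ccr7 ran from 1.039 to 1.06 in naive cells. Whether Ccr7 was less tied to the other 3 within cells was not tested. The widest ratios, from 0 for S1pr1 with Klf2 to 14.7 for Ccr7 with S1pr1, came from 50 IU/mL IL-2 on day 10 and rest on 0 and 2 cells. Cells of 1 library share its preparation and the counts are sparse, so the ratios describe these libraries.

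**Figure D4:**
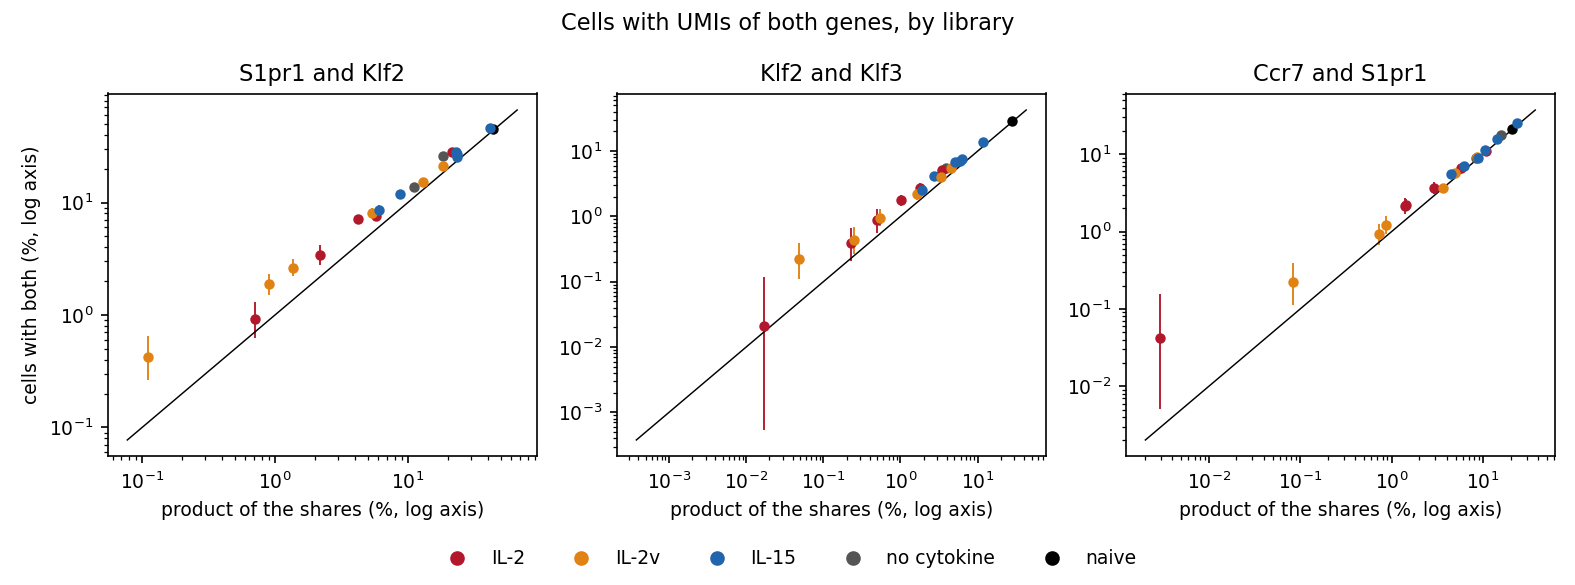
Share of cells with UMIs of both genes (%, log axis) against the product of the 2 shares (%, log axis), 1 point per library with exact 95% intervals, for 3 pairs; the line marks equality. Points of S1pr1 with Klf2 lie above the line at a median ratio of 1.31 and those of Ccr7 with S1pr1 at 1.14; the 50 IU/mL IL-2 library of day 10 had 0 cells with S1pr1 and Klf2 and is not drawn in that panel.

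Other genes of these pathways were taken from 6 lists and counted by their median difference over the pairs of a comparison. Of all genes, counted the same way, 3.01% fell by at least 2-fold and 5.35% rose with the dose of IL-2, 0.727% and 3.32% with that of IL-2v, and 0.207% and 1.32% with that of IL-15. For day 5 against day 3 the shares were 2.83% and 1.08%, for day 10 against day 5 3.93% and 0.763%, and for IL-2v against IL-2 0.627% and 1.17%. In the S1P system, 15 genes of which 7 or 8 reached 20 CPM in a comparison, S1pr1 was the 1 gene with a median fall of at least 2-fold with the dose of IL-2 and with that of IL-2v. S1pr4, another receptor of the family, had medians of −0.88 and −0.84 there. Cd69, whose product holds S1PR1 off the cell surface, had medians of 0.80 with the dose of IL-2 (range −0.55 to 1.66), 0.58 with that of IL-2v (range 0.23 to 1.22) and 1.13 with that of IL-15 (range −0.25 to 1.85). On day 10 Cd69 was 213 and 145 CPM with 5 and 50 IU/mL IL-2 and 60.3 and 142 CPM with IL-2v. In the IL-15 libraries of that day it was 10.6 and 40.9 CPM, lowest in the library where S1pr1 was highest among activated cells.

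Of the KLF family, 14 of 17 genes were in the tables and 6 to 8 reached 20 CPM in a comparison. On activation Klf2 and Klf3 fell and Klf10, which is induced by transforming growth factor beta, rose by 1.54 from 7.09 to 22.6 CPM, beside 8.31% of all genes lower and 11.1% higher. With the dose of IL-2, Klf2 and Klf3 were the 2 of 7 that fell by their median and 0 rose. With the dose of IL-2v the same 2 of 8 fell and Klf9 had a median of 1.14, reaching 20 CPM in 2 of the 3 pairs. The medians of Klf6 and Klf7 did not follow that of Klf2: with the dose of IL-2 they were 0.55 (range −1.89 to 1.31) and 0.82 (range −0.09 to 1.13). Over the 7 KLF genes together, Klf2 and Klf3 included, the median with the dose of IL-2 was −0.87. Over the 8 counted with the dose of IL-2v it was 0.10. Klf13 had medians of −0.99 with the dose of IL-2 and −0.36 with that of IL-2v. Among the 9 KLF cofactors and turnover genes, Fhl3 was the 1 of 7 that rose with the dose of IL-2 (median 1.49), and Ctbp1, which encodes a CtBP co-repressor, had a median of −0.01.

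Of the 18 genes upstream of Klf2, 13 or 15 reached 20 CPM in a comparison. Il7r, the interleukin-7 receptor, which like Klf2 and Ccr7 is a target of FOXO1, was the 1 that fell with the dose of IL-2 (median −1.80, range −2.62 to 0.56) and with that of IL-15 (−1.09, range −3.34 to −0.36). With the dose of IL-2v 0 of 15 fell by their median, and Il7r was at −0.89 (range −2.87 to 0.41). With the doses of IL-2, IL-2v and IL-15, Foxo1 itself had medians of −0.22, −0.44 and 0.02, and Foxp1, a forkhead factor of quiescent T cells, −0.92, −0.41 and −0.41. On activation 2 of 15 fell, Sgk1 (−2.64) and Il7r (−1.69), and 0 rose, beside the 8.31% of all genes lower and 11.1% higher. Against IL-2, IL-2v had lower Il7r (median −2.01) at all 6 doses and days, by 0.84 or more, while the medians of Klf2 and S1pr1 were 0.15 and −0.09.

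Of the 12 genes of lymph node entry and adhesion, 9 or 10 reached 20 CPM. Among those that fell by their median were Itga4 (−1.56), the alpha chain of the integrin VLA-4, with the dose of IL-2, and Ccr7 (−1.62) with the dose of IL-2v. From day 5 to day 10 Ccr7 and Itga4 were among those that fell by their medians, and 0 rose. Cxcr4 also had a median under −1 there (−1.15), but reached 20 CPM in 2 of the 6 pairs only. Selplg, the ligand of P-selectin, had medians within −0.35 to 0.12 in the cytokine, dose and day comparisons. Of the 14 genes of tissue and inflammatory trafficking, Cxcr3, a receptor of inflammatory chemokines, fell with the dose of IL-2 (−3.58) and of IL-2v (−1.19), and Cxcr6 with that of IL-2 (−1.56). Ccr2, also a receptor of inflammatory chemokines, was among those that rose from day 3 to day 5, with a median of 3.12.

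Over the 21 libraries, among 5495 genes whose mean reached 20 CPM, the genes whose log2(CPM + 1) followed each of the 4 most closely were found by Pearson's r; the libraries share cytokines, days and cycling, and r is a description. Klf2 and S1pr1 had an r of 0.98 with each other, the highest for S1pr1 and the second for Klf2. Klf2 was followed by Arhgef18 (0.99), S1pr1, Gm26740 (0.97), Atp1b3 (0.97) and Stk38 (0.96), and S1pr1 by Klf2, Arhgef18 (0.98), Ripor2, Maml2 and Xrn2 (0.96 each). Klf3 was followed by Stk38 (0.96), A930005H10Rik (0.95), Bcl9l, Ripor2 and Sidt1 (0.94 each). Ccr7 had another set: Ets1 (0.92), Cbx7 (0.92), Spata13 (0.91), Cmah (0.91) and Itga4 (0.90). Its r with S1pr1 was 0.86, rank 39 among the genes, with Klf2 0.84, rank 68, and with Klf3 0.72, rank 370. Without naive cells, r of Klf3 with S1pr1 was 0.95 in place of 0.91, and r of Ccr7 with S1pr1 was 0.85.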

How the data were processed

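Single-cell RNA was measured in 21 libraries. The authors deposited raw counts of UMIs per gene symbol and cell, whole numbers with no normalization in the files; Cell Ranger, Seurat 4.0.1, Seurat 3.0.2 and mm10 are named, without roles, per the submitters' processing notes. Doublet removal is not given in the sources used here, and no caller was run. A cell was kept from 1000 UMIs and 500 genes on, up to a mitochondrial share of 10%, which removed 2. Groups came from the titles. Counts were summed per library with Python 3.11.15, numpy 2.4.6 and pandas 2.3.3. CPM have exact Poisson and shares exact Clopper-Pearson 95% intervals (scipy 1.17.1). Differences are of log2(CPM + 1), which understates the change of low genes. A value was counted at 20 CPM or more in either library and at least 2-fold, and percentages of all genes use the same rule; a list gene was counted by its median over all pairs if it reached 20 CPM in at least 1 pair. Day 7 was not analysed here. The procedure was tested on simulated data.

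The 4 genes and 6 gene lists were chosen with earlier results of these data known, so their counts are descriptions. Named beside the 4 genes were, per list, the 2 highest and 2 lowest medians of a comparison, the 5 genes with the highest r for each of the 4, and, chosen after their values were seen, Foxo1, Selplg, Klf6, Klf7, Klf10, Klf13, Ctbp1 and Cd69 where they fell outside that rule. Some genes that the rule names are not reported here. Marker lists covered T, CD4 T, B, myeloid, erythroid and cycling cells; the summed level was 2238 to 5519 CPM for the T cell genes, 0 to 4.39 for Cd4, 1.54 to 18.0 for B cell and 0 to 3.15 for erythroid genes, of which Hbb-bs and Alas2 were not used here. Other settings are TMM scaling (edgeR 4.0.16, R 4.3.3), totals that leave out ribosomal protein and mitochondrial genes, the mean CPM of single cells, a pseudocount of 10, at most 5% mitochondrial UMIs, no cells over 2 times the median, noncycling cells, and thinning to 1000 UMIs or none. Also used were all barcodes, no cells with markers of other lineages, and each day left out where cytokines or doses were compared.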

Additional observations from a re-analysis of the deposited data

Results flagged for a closer look

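Some contrasts ran in opposite directions in the 2 libraries of 1 group and the 2 of another; each group is 2 doses, the differences were not tested, and values are differences of medians in log2(CPM + 1). For IL-2v against IL-2, Ccr7 was lower at both doses on day 5 (median −0.81) and higher at both on day 10 (1.28), a difference of −2.09. S1pr1 did the same, at −0.55 and 1.62, a difference of −2.16. Klf2 was higher on day 3 (0.15), lower on day 5 (−0.23) and higher on day 10 (0.86), with differences of 0.379 between days 3 and 5 and −1.09 between days 5 and 10. In noncycling cells, however, Klf2 with 50 IU/mL on day 5 was higher with IL-2v, at 125 against 98.7 CPM. With 5 IU/mL it was lower there too, at 379.6 against 427.1 CPM. For IL-15 against IL-2, Ccr7 was lower on day 3 (−0.39) and higher on day 10 (3.97), a difference of −4.35. From day 5 to day 10 Ccr7 was higher with IL-15 (0.50) and lower with IL-2 (−3.41) and IL-2v (−1.32), with differences of 3.91 and 1.82. Klf2 was higher with IL-15 (0.70) and lower with IL-2 (−2.18) and IL-2v (−1.10), with differences of 2.88 and 1.8.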

How the results depend on the processing

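No paired analysis was possible between replicates because each condition had 1 library; libraries matched for dose and day were compared pair by pair, and no test across those pairs was run. Of 135 recounts of values past 2-fold, 125 stayed within 1.5 times the count given. Among them, recounts on all barcodes add back only 2 cells. Those without cells with markers of other lineages leave out at most 1.38% of a library, so both kinds could hardly move. Of 540 recomputed median differences of single genes, 165 moved by more than counting error, by a median of 0.184 and by up to 0.785 where all days were kept, and 51 of the 72 recomputed without a day moved. Of 267 such recomputations of medians past 2-fold, 9 came out under 2-fold; 11 of the 540 changed sign, all of them medians of at most 0.40 in size. Of 20 recomputed shares of cells, 12 moved. IL-2v against IL-2 had 4 such values and 2 with a pseudocount of 10 or without day 10. Without day 10, IL-15 against IL-2 went from 14 to 6 and IL-2v against IL-15 from 16 to 8; fewer pairs enter there. The dose of IL-15 had 2 values, and 1 with at most 5% mitochondrial UMIs, without cells over 2 times the median UMIs, with TMM, with totals without ribosomal protein and mitochondrial genes, or with a pseudocount of 10, and 0 without day 10. The share of cells in the median library was 12.8% for Ccr7, 16.3% for S1pr1, 20.6% for Klf2 and 3.92% for Klf3 with 1000 UMIs per cell, 38.8%, 47.8%, 48.7% and 13.8% without thinning, and 24.5%, 31.6%, 38% and 8.86% in noncycling cells. The median difference of all genes for IL-2v against no cytokine was 0.15 with CPM and −0.04 with TMM, and from day 5 to day 10 it was −0.12 and 0.08. With 50 IU/mL IL-2 on day 10 the levels of Ccr7, S1pr1 and Klf3 rest on 73, 51 and 117 of 27274115 UMIs, which limits their precision.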
